A study of Mus musculus with 4 samples.

Results

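The circadian clock and its direct outputs were followed through 10 genes in single cells from the lymphatic vessels and veins of the mouse hind limb. The genes were chosen by name, as Dbp, Tef, Hlf, Per1, Per2, Per3, Nr1d1, Nr1d2, Ciart and Arntl, and all 10 were among the 30406 genes listed in all 4 libraries. They were read per cell type and library, so that genes known to peak at opposite times of day could be set side by side.

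The molecular clock is a feedback loop in which the activator BMAL1, encoded by Arntl, and its partner CLOCK bind E-boxes and switch on the Per, Cry, Nr1d1, Nr1d2, Ciart and Dbp genes. PER and CRY proteins then inhibit the activators, and the nuclear receptors REV-ERB alpha and beta, encoded by Nr1d1 and Nr1d2, repress Arntl through ROR elements, so that Arntl mRNA is high when the mRNAs of Dbp and Nr1d1 are low. The PAR bZIP factors DBP, TEF and HLF carry the rhythm to output genes through D-boxes, and the loop runs in most tissues, vessel wall and macrophages included.

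The tdT1 and tdT2 libraries held tdT+ cells of adult Cspg4-Cre;tdTomato mice. In these mice the reporter marks cells in which Cspg4 has driven the Cre recombinase at any time. The study's methods name male and female Cspg4-Cre mice for the cross and do not state the sex of the offspring used. The WT library came from male C57BL/6J mice and the TNF-Tg library from male mice that carry a human TNF transgene. The TNF-Tg mice had chronic inflammatory-erosive arthritis. The sample labels give 9 months as the age of both groups, the upper end of the range in the study's methods. Both libraries were sorted on high light scatter without a reporter. All mice were on a C57BL/6J background, each library pooled the vessels of 3 mice, and the cells were digested for an hour and sorted before capture. Condition, library and sorting run were therefore the same split for TNF-Tg against WT, and the hour at which the mice were killed was not given in the sources used here.

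The WT library was the deepest, at 68773605 unique molecular identifiers (UMIs) over 5488 cells, followed by TNF-Tg (37557627 UMIs, 3391 cells), tdT1 (14256192 UMIs, 1504 cells) and tdT2 (2357031 UMIs, 454 cells). The tdT1 library stood apart, with 516 cells above 10% mitochondrial UMIs against 1, 252 and 65 in tdT2, WT and TNF-Tg. Pairs of libraries shared 0 to 5 cell barcodes. A cell was given a type by its mean marker level, which left 73.5% to 86.1% of the cells of a library typed and 8.60% to 18.5% near an edge of the rule. Cells with the marker genes of the lymphatic muscle cell cluster of the study (Myoc, Pi16, Fndc1) are called LMC-type and those with the markers of its vascular smooth muscle cluster (Cxcl14, Mgp, Gdf10) VSMC-type. The contractile gene Myh11 was at most 0.120 CPM (UMIs per 1000000 UMIs of that cell type) in LMC-type cells of any library. In VSMC-type cells it reached 44.2 CPM in tdT1 and at most 1.14 CPM in the other libraries. Acta2, Tagln, Cnn1 and Lmod1 were also at most 0.864 CPM in LMC-type cells. The muscle gene Des went the other way, at 10.6 to 39.9 CPM in LMC-type and 1.43 to 11.9 CPM in VSMC-type cells. Dcn, which the study counts among non-specific fibroblast genes, was at 10263 to 20156 CPM in LMC-type and 12754 to 24471 CPM in VSMC-type cells. The study calls its muscle clusters myofibroblast-like and does not fully exclude that they are myofibroblasts of nearby tissue. The names therefore stand for the marker genes and make no statement on muscle identity or contractile state. Resident macrophages were typed by Lyve1, Cd209f and Folr2.

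The promoters of 4 members are shown because they hold clock motifs and because these genes differed between the TNF-Tg and WT libraries, Tef and Per3 in one direction and Per1 and Arntl in the other. RefSeq promoters (build GRCm38.p6, 250 bases before to 50 after a start site) were found for 9 of the 10 members, as 12 promoters. They were searched on both strands for CACGTG and CACGTT (E-boxes), TTATGTAA and TTACGTAA (D-boxes) and AGTAGGTNA (the core of a ROR element), and matches are in capitals. The first promoters of Tef (chr15:81802423-81802722, plus strand) and Per1 (chr11:69098699-69098998, plus strand) each hold 1 CACGTG. Per3 (chr4:151044616-151044915, minus strand) holds 2 TTATGTAA, and the second Arntl promoter (chr7:113207261-113207560, plus strand) holds 2 AGTAGGTNA. Of those not shown, the second Tef promoter also holds 1 CACGTG and the second Per1 promoter none of the 5 motifs. The first Arntl promoter overlaps the second and holds 1 AGTAGGTNA, which is the first of the 2 sites shown.
Tef: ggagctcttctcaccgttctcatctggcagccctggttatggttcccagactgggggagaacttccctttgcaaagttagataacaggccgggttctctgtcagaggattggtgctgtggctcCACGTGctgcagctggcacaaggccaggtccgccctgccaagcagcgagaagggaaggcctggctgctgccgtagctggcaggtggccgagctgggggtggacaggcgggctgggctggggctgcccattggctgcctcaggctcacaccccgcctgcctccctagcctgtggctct
Per1: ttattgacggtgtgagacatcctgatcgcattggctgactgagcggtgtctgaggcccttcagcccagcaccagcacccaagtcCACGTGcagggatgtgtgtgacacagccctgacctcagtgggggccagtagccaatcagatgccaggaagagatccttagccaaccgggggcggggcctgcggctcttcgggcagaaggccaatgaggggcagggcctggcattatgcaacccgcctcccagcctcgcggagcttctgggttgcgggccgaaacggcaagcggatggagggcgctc
Per3: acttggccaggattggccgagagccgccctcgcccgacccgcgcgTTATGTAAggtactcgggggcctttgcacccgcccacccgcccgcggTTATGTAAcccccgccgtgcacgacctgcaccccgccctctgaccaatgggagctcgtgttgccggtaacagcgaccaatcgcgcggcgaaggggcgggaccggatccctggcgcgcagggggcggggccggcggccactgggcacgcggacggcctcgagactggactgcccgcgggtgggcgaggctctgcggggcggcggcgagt
Arntl: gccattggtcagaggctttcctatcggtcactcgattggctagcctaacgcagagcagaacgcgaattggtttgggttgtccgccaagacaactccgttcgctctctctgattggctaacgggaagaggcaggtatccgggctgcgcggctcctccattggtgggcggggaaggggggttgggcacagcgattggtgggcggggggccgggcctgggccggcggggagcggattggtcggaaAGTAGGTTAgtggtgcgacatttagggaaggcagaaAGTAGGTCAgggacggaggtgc
Of all 32851 promoters of this length, 7.15% hold CACGTG, 4.68% CACGTT, 0.938% TTATGTAA, 0.119% TTACGTAA and 0.591% AGTAGGTNA. The Ciart promoter holds 3 CACGTG and that of Nr1d1 holds 1 CACGTT, while those of Dbp, Hlf and Nr1d2 hold none of the 5 motifs in this window. A match is a description of letters and does not show binding.

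The activator gene Arntl was lower in TNF-Tg than in WT in every cell type in which it was measured. In LMC-type cells it stood at 11.95 CPM in TNF-Tg, against 29.0 in WT, 31.7 in tdT2 and 39.2 in tdT1. In VSMC-type cells the values were 6.03, 23.3, 16.8 and 33.2 CPM in the same order, and in resident macrophages 20.9, 30.5, 22.5 and 34.3 CPM, the last pair on 4 UMIs each. TNF-Tg was thus the lowest library in LMC-type and VSMC-type cells, while in resident macrophages the intervals of both tdT values (6.14 to 57.7 CPM in tdT2) spanned that of TNF-Tg. The Poisson intervals of TNF-Tg and WT did not overlap in any of them (95%, 9.52 to 14.8 against 26.9 to 31.3 CPM in LMC-type cells). The log2 ratio of TNF-Tg over WT was −1.28 (95% exact conditional binomial interval, −1.63 to −0.95) in LMC-type cells, −1.95 (−2.53 to −1.41) in VSMC-type cells and −0.55 (−0.92 to −0.19) in resident macrophages. It was −1.26 (−2.16 to −0.39) in Ccr2 macrophages and −0.22 (−1.37 to 0.89) in T cells, on 48 and 31 UMIs. These intervals cover counting error only, since TNF-Tg and WT were 1 library each, and no p-value is given for that comparison. CPM of a sum over cells cannot tell less RNA in each cell from fewer cells that hold it.

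**Figure D1:**
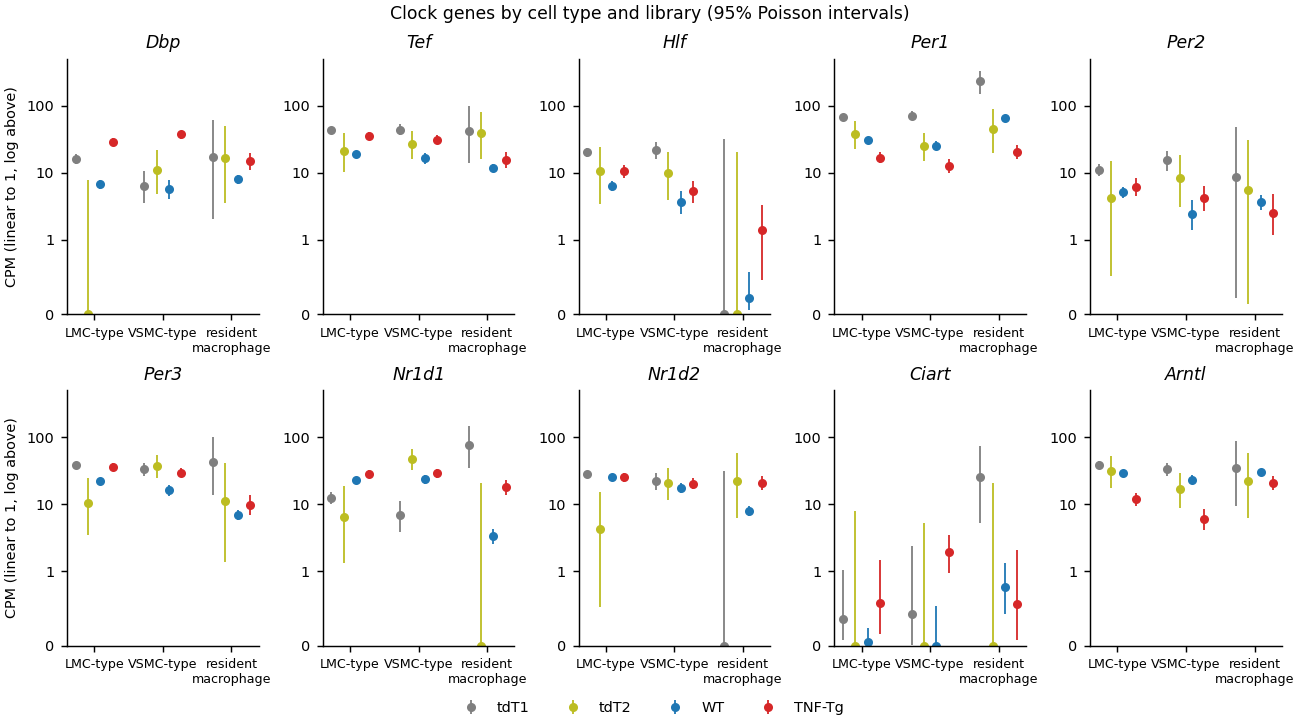
Level of each clock gene (CPM, UMIs per 1000000 UMIs of the cell type, linear to 1 and logarithmic above) in LMC-type cells, VSMC-type cells and resident macrophages of the tdT1, tdT2, WT and TNF-Tg libraries, with points for the summed UMIs and bars for 95% Poisson intervals. Dbp is highest and Arntl lowest in TNF-Tg among LMC-type and VSMC-type cells, and most points of the tdT libraries among resident macrophages rest on fewer than 10 UMIs.

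Dbp, the output gene with the opposite phase, had the largest difference of the 9 genes measured (20 or more UMIs over both libraries) between TNF-Tg and WT in LMC-type and VSMC-type cells, and in the opposite direction to Arntl. In LMC-type cells it stood at 28.8 CPM in TNF-Tg and 6.78 CPM in WT, with 0 in tdT2 and 16.2 CPM in tdT1. In VSMC-type cells it was 37.4, 5.72, 11.2 and 6.38 CPM in the same order, and in resident macrophages 14.96, 8.001, 16.9 and 17.2 CPM. TNF-Tg was the highest library for LMC-type and VSMC-type cells, and in resident macrophages the tdT values (3 and 2 UMIs) had intervals that spanned both WT and TNF-Tg. The log2 ratio of TNF-Tg over WT was 2.09 (1.78 to 2.40) in LMC-type cells, a 4.25-fold difference, 2.71 (2.22 to 3.24) in VSMC-type cells, 6.55-fold, and 0.90 (0.42 to 1.37) in resident macrophages, 1.87-fold. In T cells the ratio was 0.64 (−0.49 to 1.80) and in Ccr2 macrophages −0.69 (−1.87 to 0.50), both with intervals across 0 and on 30 and 28 UMIs.

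The other PAR bZIP genes differed in the direction of Dbp in stromal cells, by less. Tef stood at 35.4 CPM in TNF-Tg, against 19.2 in WT, 21.1 in tdT2 and 42.9 in tdT1 for LMC-type cells, and at 31.4, 16.4, 26.6 and 44.2 CPM for VSMC-type cells. Tef was higher in TNF-Tg than in WT in all 4 cell types measured, with log2 ratios of 0.88 (0.65 to 1.11) in LMC-type cells, 0.93 (0.59 to 1.29) in VSMC-type cells, 0.43 (−0.02 to 0.86) in resident macrophages and 0.42 (−1.03 to 2.07) in Ccr2 macrophages. Unlike Dbp, the level of Tef in TNF-Tg was below that in tdT1 in both stromal types. Hlf was 10.5 CPM in TNF-Tg and 6.35 CPM in WT for LMC-type cells, a log2 ratio of 0.73 (0.30 to 1.14), and 5.32 against 3.71 CPM for VSMC-type cells, 0.52 (−0.29 to 1.33). Its tdT1 values were higher than both, at 20.3 and 21.7 CPM, so that TNF-Tg over tdT1 gave −0.95 (−1.36 to −0.54) and −2.03 (−2.73 to −1.35). In tdT2 Hlf stood at 10.6 CPM (5 UMIs) and 9.80 CPM (7 UMIs), with intervals across 0 for TNF-Tg over tdT2. In T cells Hlf was lower in TNF-Tg, at 21.6 CPM (10 UMIs) against 54.5 CPM (30 UMIs), a log2 ratio of −1.34 (−2.53 to −0.26).

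**Figure D2:**
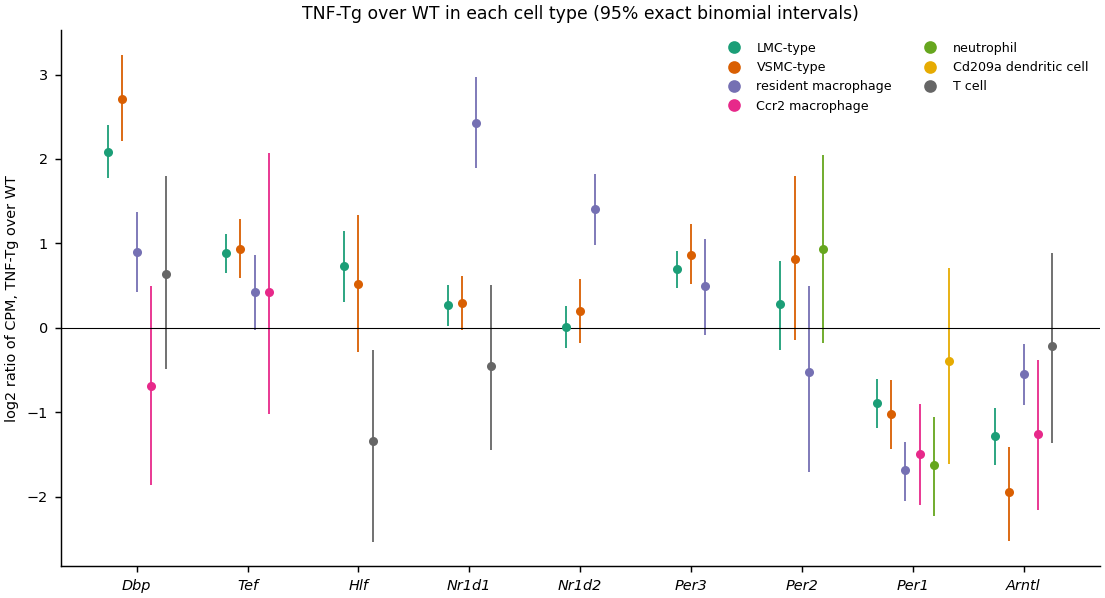
Log2 ratio of CPM in TNF-Tg over WT (vertical axis) for each clock gene with 20 or more UMIs over both libraries, with a point for each cell type and bars for the 95% exact binomial interval of the counts. Arntl and Per1 lie below 0 in every cell type shown, Tef, Per3 and Nr1d2 above it, and Dbp lies at 2.09 and 2.71 in LMC-type and VSMC-type cells, while the VSMC-type points of Nr1d1 and Nr1d2 fall below 0 when clusters replace the marker rule or each cell is weighted equally, and the LMC-type point of Nr1d2 falls below 0 without predicted doublets.

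The REV-ERB genes, which encode the repressors of Arntl, showed their largest difference in resident macrophages. There Nr1d1 was at 17.8 CPM in TNF-Tg and 3.30 CPM in WT, a log2 ratio of 2.43 (1.89 to 2.97), and Nr1d2 at 20.9 against 7.89 CPM, 1.40 (0.98 to 1.82). In tdT1 resident macrophages Nr1d1 reached 77.2 CPM on 9 UMIs, and in tdT2 it was at 0 of 177547 UMIs. The 4 libraries thus covered the whole range in that cell type, with the tdT values resting on few counts. In LMC-type cells Nr1d1 stood at 12.3, 6.34, 23.3 and 28.1 CPM in tdT1, tdT2, WT and TNF-Tg, and the log2 ratio of TNF-Tg over WT was 0.27 (0.02 to 0.51). In VSMC-type cells it stood at 6.80, 47.6, 23.9 and 29.3 CPM, with a ratio of 0.29 (−0.02 to 0.61) that was −0.03 when clusters replaced the marker rule and −0.11 when each cell was weighted equally. Nr1d2 was at 28.0, 4.22, 25.1 and 25.3 CPM in LMC-type cells and at 22.1, 21.0, 17.6 and 20.2 CPM in VSMC-type cells, and its ratios there, 0.01 (−0.24 to 0.26) and 0.20 (−0.18 to 0.58), had intervals across 0. Both turned below 0 under an alternative, the first to −0.01 without predicted doublets and the second to −0.02 with clusters and −0.04 with equal weights. In T cells, which had the highest Nr1d1 in WT, it was at 34.6 CPM in TNF-Tg and 47.3 CPM in WT, a log2 ratio of −0.45 (−1.45 to 0.50). The interval of Nr1d1 in resident macrophages did not overlap those in the stromal types; this difference between cell types was not tested. Stromal RNA in resident macrophages, summed over 6 collagen and matrix genes, was 1.48% of the LMC-type level in WT and 3.35% in TNF-Tg; its part in these values was not tested.

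The period genes did not move together. Per3, an E-box and D-box target, stood at 38.0, 10.6, 22.4 and 36.1 CPM in LMC-type cells of tdT1, tdT2, WT and TNF-Tg and at 33.2, 37.8, 16.1 and 29.4 CPM in VSMC-type cells. It was higher in TNF-Tg than in WT by log2 ratios of 0.69 (0.47 to 0.91), 0.87 (0.51 to 1.23) and, in resident macrophages, 0.50 (−0.09 to 1.05). Per2 was scarce, at 6.19 CPM in TNF-Tg and 5.10 CPM in WT for LMC-type cells, and its intervals crossed 0 in all 4 cell types measured (log2 ratios of 0.28 and 0.81 in LMC-type and VSMC-type cells, 0.93 in neutrophils and −0.52 in resident macrophages, the last 0.18 with each cell weighted equally).

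Per1, which besides the clock answers within minutes to glucocorticoids and other stimuli, was lower in TNF-Tg in all 6 cell types measured. In LMC-type cells it stood at 16.8 CPM in TNF-Tg, against 31.2 in WT, 38.0 in tdT2 and 67.5 in tdT1. In VSMC-type cells it was 12.6, 25.6, 25.2 and 71.0 CPM in the same order, and in resident macrophages 20.6, 66.4, 45.1 and 232 CPM. TNF-Tg was the lowest and tdT1 the highest library in LMC-type and VSMC-type cells. In resident macrophages tdT1 was the highest (27 UMIs, 153 to 337 CPM), and the value of tdT2, on 8 UMIs (19.5 to 88.8 CPM), had an interval that held both WT and TNF-Tg. The log2 ratios of TNF-Tg over WT were −0.89 (−1.18 to −0.60), −1.02 (−1.44 to −0.62) and −1.69 (−2.05 to −1.35) in these 3 cell types, −1.50 (−2.10 to −0.90) in Ccr2 macrophages, −1.62 (−2.23 to −1.05) in neutrophils and −0.39 (−1.61 to 0.71) in Cd209a dendritic cells. In neutrophils the summed stromal genes were 8.44% of the LMC-type level in WT and 2.58% in TNF-Tg; their part in that ratio was not tested. T cells, with 5 Per1 UMIs in TNF-Tg and 1 in WT, were below the minimum. In LMC-type cells, VSMC-type cells and resident macrophages, Per1 thus differed in the direction of Arntl and against that of Per3, Tef and Dbp. In Ccr2 macrophages Dbp was lower in TNF-Tg as well, with an interval across 0.

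Ciart, which encodes a repressor of the BMAL1 and CLOCK pair, was near the limit of detection. It had 4 UMIs in TNF-Tg and 1 in WT among LMC-type cells, 2 and 14 among resident macrophages, and in no cell type 20 UMIs over both libraries. In VSMC-type cells it had 11 UMIs in TNF-Tg and 0 of 6999053 UMIs in WT, 4.55-fold higher in TNF-Tg with 3 UMIs in place of the 0.

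Of the 9 members measured in at least 3 of the 7 cell types compared, 3 (Tef, Per3, Nr1d2) were higher in TNF-Tg in every one of them and 2 (Arntl, Per1) lower in every one. Among all 10682 genes measured in at least 3 of the cell types, 11.0% were higher in every one and 17.1% lower in every one. Per3 and Nr1d2 were measured in 3 cell types, Tef in 4, Arntl in 5 and Per1 in 6. The shares of all genes were not matched for this number, and a common direction is easier to reach in fewer cell types. Any ratio above or below 0 counted, however small. The interval excluded 0 in 2 of these cell types for Per3, 1 for Nr1d2, 2 for Tef, 4 for Arntl and 5 for Per1. The LMC-type and VSMC-type ratios of Nr1d2 turned below 0 under alternatives. With a bound of 2-fold, 1 of 9 members was higher (Dbp) and 1 lower (Arntl) in LMC-type cells, where 4.53% and 5.38% of 12150 genes were. In VSMC-type cells 1 was higher (Dbp) and 2 lower (Per1, Arntl), against 3.96% and 11.0% of 11248 genes. In resident macrophages 2 of 8 were higher (Nr1d1, Nr1d2) and 1 lower (Per1), against 5.76% and 5.81% of 11427 genes. The median log2 ratio over the members was 0.28, 0.52 and 0.46 in the 3 cell types, and that over all genes −0.02, −0.18 and 0.05. Relative to the shift of all genes in VSMC-type cells, the ratio of Dbp was 2.89 and that of Arntl −1.77. In T cells, where the shift was −0.20, they were 0.83 and −0.02. The cell types of a library shared its mice and its handling and are not independent replicates of the condition.

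**Figure D3:**
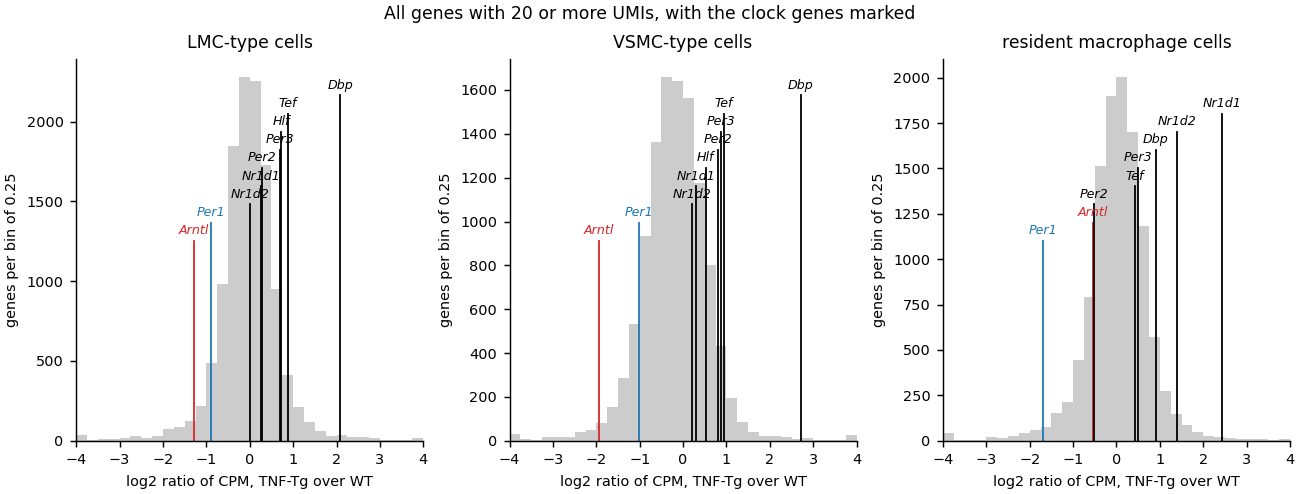
Number of genes per bin of 0.25 (vertical axis) by log2 ratio of TNF-Tg over WT in LMC-type cells, VSMC-type cells and resident macrophages, for all genes with 20 or more UMIs and with genes past 4 in either direction put in the outermost bins. Lines mark the clock genes, with Arntl in red and Per1 in blue; Dbp lies at 2.09, 2.71 and 0.90 and Arntl at −1.28, −1.95 and −0.55.

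Since Dbp and Arntl were counted in the same cells, their ratio does not depend on the scaling of a library. In LMC-type cells there were 135 Dbp to 327 Arntl UMIs in tdT1, 158 to 677 in WT and 200 to 83 in TNF-Tg. The log2 ratio of Dbp over Arntl was −1.28 (−1.58 to −0.98) in tdT1, −2.10 (−2.36 to −1.85) in WT and 1.27 (0.89 to 1.66) in TNF-Tg. In VSMC-type cells it was −2.38 (−3.28 to −1.57) in tdT1, −0.58 (−2.08 to 0.83) in tdT2 on 20 UMIs (0.42 at the highest among the alternatives), −2.03 (−2.56 to −1.52) in WT and 2.63 (2.11 to 3.20) in TNF-Tg. Among stromal cells, the interval lay above 0 in TNF-Tg and below 0 in WT and tdT1. The LMC-type cells of tdT2 had 0 Dbp and 15 Arntl UMIs, below the minimum of 20. In resident macrophages the ratio was −1.93 (−2.21 to −1.66) in WT and −0.48 (−1.02 to 0.05) in TNF-Tg. From WT to TNF-Tg the log2 ratio changed by 3.37 (2.92 to 3.81, normal interval from the 4 counts) in LMC-type cells, 4.66 (3.94 to 5.38) in VSMC-type cells, 1.45 (0.87 to 2.02) in resident macrophages, 0.57 (−0.78 to 1.92) in Ccr2 macrophages and 0.86 (−0.61 to 2.32) in T cells. The stromal intervals lay above that of resident macrophages.

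**Figure D4:**
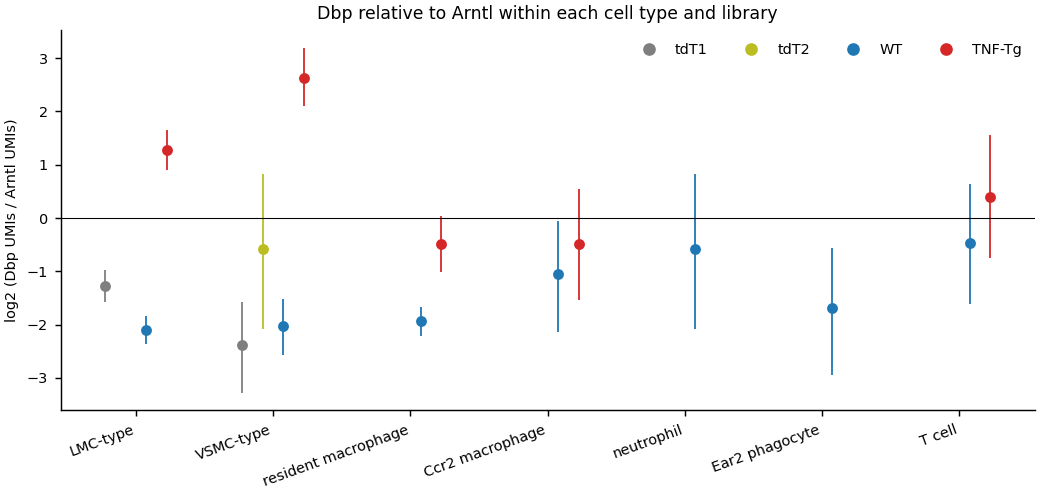
Log2 of Dbp UMIs over Arntl UMIs (vertical axis) in each cell type and library with 20 or more UMIs of the pair, with bars for the 95% exact binomial interval. TNF-Tg lies at 1.27 and 2.63 in LMC-type and VSMC-type cells, where WT lies at −2.10 and −2.03.

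The share of cells with at least 1 UMI showed the same order when each cell was thinned to 3000 UMIs. Dbp was then seen in 2.00% (1.33 to 2.87, exact Clopper-Pearson) of 1403 LMC-type cells of WT and 8.70% (6.39 to 11.5) of 506 of TNF-Tg, and Arntl in 9.55% (8.06 to 11.2) and 3.56% (2.12 to 5.56). Before thinning the shares were 9.26% and 23.8% for Dbp and 34.3% and 13.8% for Arntl, at medians of 16120 and 12372 UMIs per cell. Erythroid cells, taken as a reference for free RNA, had no Dbp or Arntl UMI in 37 thinned cells of WT, which allows a share of up to 8.11%, and none in 46 of TNF-Tg, which allows up to 6.52%, at medians of 4191 and 10572.5 UMIs before thinning. With so few cells these limits do not lie below the lower shares. In summed UMIs the 10 members came to 5.30 CPM (0.642 to 19.2) in erythroid cells of WT against 169 CPM (163 to 174) in its LMC-type cells, and to 11.7 CPM (4.31 to 25.6) against 200 CPM (189 to 211) in TNF-Tg.

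Of 22 other clock genes, 2 were at least 2-fold higher (Bhlhe40, Bhlhe41) and 2 lower (Npas2, Nfil3) in TNF-Tg among 20 measured in LMC-type cells. Of all genes there, 4.53% were higher and 5.38% lower. In VSMC-type cells 1 of 19 was higher and 6 were lower, against 3.96% and 11.0% of all genes. In resident macrophages 1 of 17 was higher and 3 were lower, against 5.76% and 5.81%. The median log2 ratios of these clock genes were −0.50, −0.65 and −0.19. Npas2, a partner of BMAL1 that can stand in for CLOCK, was at 3.74 CPM in TNF-Tg and 10.0 CPM in WT for LMC-type cells, a log2 ratio of −1.42 (−2.07 to −0.84), and at 2.13 against 9.00 CPM for VSMC-type cells, −2.08 (−3.11 to −1.18). Nfil3, whose product represses D-box genes against the PAR bZIP factors, was lower by log2 ratios of −1.02, −1.43 and −1.05 in LMC-type cells, VSMC-type cells and resident macrophages. Bhlhe40, which encodes the E-box repressor DEC1, was higher by 1.48, 1.32 and 2.27. These were the 3 genes past 2-fold in 2 or more of these cell types. The Cry genes, whose products inhibit the activators, did not pass 2-fold in 2 of these cell types and are named outside that rule. Their log2 ratios were below 0 in LMC-type cells, VSMC-type cells and resident macrophages. They were −0.78, −0.51 and −1.002 for Cry1 and −0.74, −1.30 and −0.18 for Cry2. Intervals crossed 0 for Cry1 in VSMC-type cells and Cry2 in resident macrophages. In Ccr2 macrophages, neutrophils and T cells Cry1 was at 0.32, 0.23 and 0.03, all with intervals across 0. The repressor genes thus did not differ in 1 direction. Wee1, the cell cycle kinase with clock-driven E-boxes, is named after its values were seen: it was at 6.21 CPM in TNF-Tg and 37.4 CPM in WT among resident macrophages, −2.59 (−3.27 to −1.98).

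**Figure D5:**
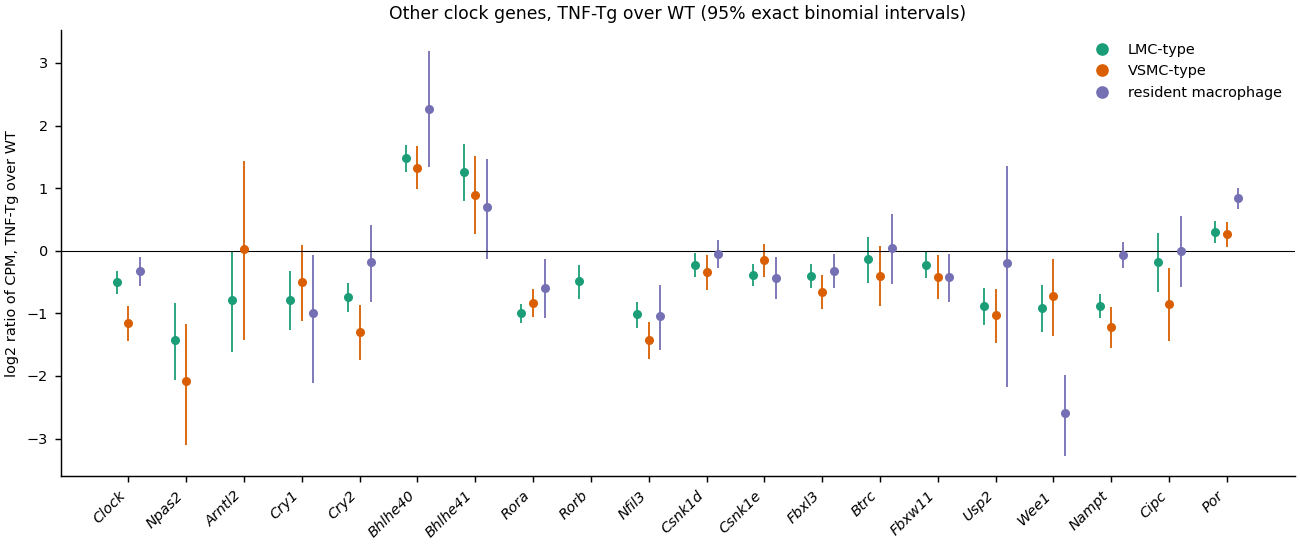
Log2 ratio of CPM in TNF-Tg over WT (vertical axis) for the other clock genes with 20 or more UMIs in LMC-type cells, VSMC-type cells or resident macrophages, with bars for the 95% exact binomial interval. Bhlhe40 and Bhlhe41 lie above 0 and Npas2, Rora and Nfil3 below it in the cell types shown, and Wee1 lies at −2.59 in resident macrophages.

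Genes that respond to glucocorticoids differed with Per1. Of 10 such genes, 7, 8 and 5 were at least 2-fold lower in TNF-Tg in LMC-type cells, VSMC-type cells and resident macrophages and 2, 1 and 0 at least 2-fold higher, with median log2 ratios of −1.41, −1.95 and −1.38. Of all genes measured in these cell types, 5.38%, 11.0% and 5.81% were lower by that bound and 4.53%, 3.96% and 5.76% higher. The list was chosen with earlier results of these data known, and its counts are not a test. The study lists Zbtb16, Klf9 and Mt2 among the top changed genes of its muscle clusters between the same libraries. Fkbp5, which encodes a chaperone of the receptor, was lower by log2 ratios of −1.22, −1.61 and −3.40 in these cell types, Tsc22d3 by −2.03, −3.12 and −2.21, Zbtb16 by −2.99, −3.87 and −3.42, Klf9 by −1.52, −1.55 and −3.27 and Ddit4 by −1.73, −2.94 and −3.88. Errfi1 (−1.29 and −2.28) and Cdkn1a (−2.30 and −2.36) passed 2-fold downward in LMC-type and VSMC-type cells, and the metallothionein gene Mt2 upward (2.65 and 1.71). Of 10 immediate-early and heat shock genes that tissue digestion can induce, 1, 2 and 0 were at least 2-fold lower and none higher, with medians of −0.37, −0.29 and −0.59. These counts stand beside the same shares of all genes. Fosb was the gene of this list past 2-fold in 2 cell types, at −1.03 and −1.06 in LMC-type and VSMC-type cells. The part of either response in the values of Per1 was not tested, and time of day, genotype and library cannot be told apart for any of these genes.

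The tdT replicates differed from each other as well. In LMC-type cells Dbp was at 135 UMIs of 8343283 in tdT1 and 0 of 473466 in tdT2. With 3 UMIs in place of the 0 it was 2.55-fold higher in tdT1, and the interval of the log2 ratio began at 1.03. In VSMC-type cells Dbp was at 6.38 and 11.2 CPM, a log2 ratio of tdT1 over tdT2 of −0.81 (−2.14 to 0.63). Arntl was higher in tdT1 in both cell types, by 0.31 (−0.44 to 1.16) and 0.98 (0.10 to 1.99). Per1 was higher in tdT1 by 0.83 (0.15 to 1.59) and 1.49 (0.79 to 2.28), and Tef by 1.02 (0.13 to 2.10) and 0.73 (0.02 to 1.52). All 10 immediate-early and heat shock genes were higher in tdT1 than in tdT2 in both cell types, and their summed level in tdT1 (18078 and 23343 CPM) was above those in tdT2 (3844 and 7731), WT (4084 and 4020) and TNF-Tg (3193 and 3645 CPM). Fosb alone was at 1524 CPM in LMC-type cells of tdT1 and 184 CPM in tdT2, and 217 of the 711 LMC-type cells of tdT1 were above 10% mitochondrial UMIs, against 0 of 85 in tdT2. The part of either in the level of Per1 in tdT1 was not tested. Unlike TNF-Tg against WT, the tdT pair thus had Arntl, Per1 and Tef all higher in the same library. In LMC-type cells every member measured was higher in tdT1, and the 10 members summed to 276 CPM in tdT1 and 127 CPM in tdT2. In VSMC-type cells Dbp, Per3 and Nr1d1 were lower in tdT1, and the sums were 254 and 204 CPM. The shift of all genes between these 2 libraries is not given here. Nr1d1 in VSMC-type cells was lower in tdT1, at 6.80 against 47.6 CPM, −2.81 (−3.76 to −1.91), and in LMC-type cells at 12.3 against 6.34 CPM, 0.96 (−0.63 to 3.26) on 3 UMIs of tdT2. As mean ± SD (n = 2), Dbp was at 8.09 ± 11.4 and 8.79 ± 3.41 CPM and Arntl at 35.4 ± 5.31 and 25.0 ± 11.6 CPM in LMC-type and VSMC-type cells of the tdT libraries. In LMC-type and VSMC-type cells, Dbp in TNF-Tg (28.8 and 37.4 CPM) lay above both tdT values and Arntl (11.95 and 6.03 CPM) below both. The tdT libraries were sequenced on different instruments, sorted through different nozzles and processed with different Cell Ranger versions. Their VSMC-type cells also differed in contractile genes, with Acta2 at 122 CPM in tdT1 and 1.40 CPM in tdT2 and Myh11 at 44.2 and 0 CPM. The part of any of these in the difference between the tdT libraries was not tested.

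Cell types were compared with edgeR's quasi-likelihood test on 12 sums, LMC-type cells, VSMC-type cells and resident macrophages in each of the 4 libraries, with library as a block and Benjamini-Hochberg adjustment over 11419 genes. The genes used to type the cells did not include a member. Between VSMC-type and LMC-type cells none of the 9 members tested passed an adjusted p of 0.01 by edgeR or by DESeq2, and 1 had an unadjusted p under 0.05 (Arntl), where 10.1% of all genes passed. The log2 fold changes ran from −0.45 (SE 0.20) for Arntl to 0.19 (SE 0.429) for Nr1d1. In simulated data this contrast recovered 7 of 100 genes changed 2-fold and 89 of 100 changed 4-fold. A 2-fold difference between the stromal types would thus mostly be missed, and the lack of a call does not show equal levels. Between resident macrophages and LMC-type cells 5 of 9 passed, where 45.2% of all genes did. The resident macrophage sums of the tdT libraries were thin, at 116606 UMIs of 37 cells in tdT1 and 177547 UMIs of 51 cells in tdT2. In tdT1, 20 of these 37 cells were above 10% mitochondrial UMIs. Hlf was lower in resident macrophages by a log2 fold change of −3.96 (SE 0.429, edgeR adjusted p = 2.84e-07) and Per3 by −1.64 (SE 0.276, edgeR adjusted p = 5.53e-05). Hlf was at 0.224 CPM in resident macrophages of WT and 1.41 CPM in those of TNF-Tg, against 6.35 and 10.5 CPM in their LMC-type cells, with intervals that did not overlap. Resident macrophages of tdT1 and tdT2 had no Hlf UMI, where 3 UMIs in place of the 0 would be 25.7 and 16.9 CPM. At that depth the 0 does not set them apart from LMC-type cells. The tdT libraries did not show Per3 lower in resident macrophages. As mean ± SD (n = 2), Per3 stood at 27.1 ± 22.4 CPM there and 24.3 ± 19.4 CPM in their LMC-type cells. Nor was Tef lower there, at 41.2 ± 2.44 CPM (5 and 7 UMIs) against 32.0 ± 15.4 CPM. Over all libraries, Nr1d2 (−1.08, edgeR adjusted p = 0.00602) and Tef (−0.82, edgeR adjusted p = 0.00318) were lower and Per1 (0.77, edgeR adjusted p = 0.00452) higher. These last 3 did not pass by DESeq2, which called Hlf and Per3, nor without the WT library, where the count was 2, and the range of the count over the alternatives was 1 to 7. Arntl (0.15, SE 0.218, edgeR adjusted p = 0.587) and Dbp (−0.39, SE 0.395, edgeR adjusted p = 0.433) did not pass. Of 20 other clock genes tested, 11 were lower and 0 higher in resident macrophages, among them Npas2 (−5.05), Rora (−2.64) and Cry2 (−2.16). The 45.2% of all genes that passed there counts both directions. Between VSMC-type and LMC-type cells 3 of these 20 were lower and 0 higher, against 10.1% of all genes in both directions. They were Rorb (−4.99), Nampt (−0.83) and Cry2 (−0.79).

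Across the remaining cell types with at least 50 cells, WT and TNF-Tg gave low counts. T cells held the highest Hlf of any type in WT, 54.5 CPM, and the highest Nr1d1, 47.3 CPM, on 30 and 26 UMIs. Next in WT were LMC-type cells for Hlf (6.35 CPM) and VSMC-type cells for Nr1d1 (23.9 CPM), the latter within counting error of LMC-type cells at 23.3 CPM. Neutrophils had the highest Per1 in WT, 101 CPM (86.4 to 118), beyond the interval of resident macrophages at 66.4 CPM (62.7 to 70.3) but not of mast cells at 72.8 CPM on 13 UMIs. For Arntl, T cells (32.7 CPM), resident macrophages (30.5 CPM) and LMC-type cells (29.0 CPM) of WT had overlapping intervals at the top, and Ear2 phagocytes (5.09 CPM) and Cd209a dendritic cells (4.52 CPM) were at the bottom of the types with at least 5 UMIs. In monocytes of TNF-Tg, which had no counterpart of 50 cells in WT, Arntl was at 5.40 CPM (inflammatory) and 6.17 CPM (patrolling), Dbp at 1.25 and 0.514 CPM and Per1 at 11.2 and 22.1 CPM. Basophils of TNF-Tg had 5 Dbp and 1 Arntl UMIs.

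Over the 12 sums, with the mean of each cell type taken away, the genes whose log2(CPM + 1) was most like that of Dbp were Tmem97 (Pearson r = 0.95), Lhpp (0.95), Ube2s (0.90), Fam43a (0.89) and Mrfap1 (0.88), among 10640 genes. Those most like Arntl were Pcmtd1 (0.98), Tns1 (0.97), Foxn3 (0.96), Otud7b (0.95) and Tmbim1 (0.95). In LMC-type cells Tmem97 was at 32.7 CPM in TNF-Tg, 10.0 in WT, 13.7 in tdT1 and 2.11 in tdT2, the last on 1 UMI. Pcmtd1 was at 37.0, 62.8, 80.3 and 67.6 CPM in the same order. Lhpp and Fam43a, like Dbp, had no UMI in LMC-type cells of tdT2, so that their likeness rests in part on a sum of low depth. Among the members, Dbp and Arntl had an r of −0.60, Dbp and Per3 0.62, and Arntl and Per1 0.77. The 12 points share 4 libraries and their depth, so these values describe likeness across libraries and carry no p-value.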

How the data were processed

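Whole-transcriptome 3′ single-cell libraries of 4 samples (tdT1 and tdT2 as group tdT, n = 2, WT and TNF-Tg with 1 library each) were read from the deposited matrices. They hold UMI counts, not normalized, for each gene in each barcode called as a cell, and the authors' pipeline was Cell Ranger (3.1.0 in the matrix header of tdT1, 6.0.1 in the others). The submitters' processing notes list Cell Ranger 3.1, Seurat 4.0.3 and build mm10. The annotation release was not given in the sources used here. No column was left unused. The 30406 genes listed in all libraries were kept.

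Cells were typed in Python 3.11.15 by the mean log-normalized level (per 10000 UMIs) of marker genes for 14 types: the highest score, at least 0.75, at least 0.3 above the next, with at least 3 markers detected. This rule was set after the cells had been looked at, and 1 marker without a unique symbol was left out. No cell was removed for quality or as a doublet, except in alternatives (Scrublet in scanpy 1.11.5). UMIs were summed per cell type and library and scaled to 1000000 (CPM). A gene counted as measured with 20 or more UMIs over both libraries, in cell types with 50 or more cells in both, erythroid cells apart. Intervals are at 95% and cover counting error only; a count of 0 was set against 3 UMIs. Cell types were tested in R 4.3.3 with edgeR 4.0.16 (TMM, filterByExpr, library as block), with a threshold of 0.01 and SE taken as the fold change over the root of F; DESeq2 1.42.0 was an alternative. The test was tested on simulated data before use.

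The members and gene lists were chosen with earlier results of these data known. Named beside the members were clock genes and genes of the glucocorticoid and immediate-early lists past 2-fold in at least 2 of LMC-type cells, VSMC-type cells and resident macrophages, and the 5 genes most like Dbp and the 5 most like Arntl, among those with 200 or more UMIs and 5 CPM in 3 of the 12 sums. For TNF-Tg against WT, Cry1, Cry2 and Wee1 were given with values outside that rule. Nothing in the labels pairs the libraries. Per the study's methods, tdT1 and tdT2 were separate runs on different mice. With library as a block, p-values measure how far a cell type difference varied across these 4 libraries, which differ in genotype and sorting.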

Additional observations from a re-analysis of the deposited data

Results flagged for a closer look

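Hlf differed between TNF-Tg and WT in opposite directions in 2 cell types, with intervals that excluded 0 on either side. The log2 ratio of TNF-Tg over WT was 0.73 in LMC-type cells, on 73 and 148 UMIs, and −1.34 in T cells, on 10 and 30 UMIs. The difference between the cell types was not tested. T cells numbered 66 in TNF-Tg and 60 in WT.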

How the results depend on the processing

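Among alternative values of the main results, 116 kept their direction and moved by less than the counting interval or, for counts, by under 1.5 times, and 10 moved by more. The log2 ratio of TNF-Tg over WT ranged from 2.00 to 2.35 for Dbp and from −1.40 to −1.25 for Arntl in LMC-type cells, over clusters in place of the marker rule, TMM scaling, equal weight per cell, no predicted doublets, a quality filter on cells and, chosen after seeing the data, no cells near the edge of the marker rule. With clusters, Arntl in VSMC-type cells stood at −2.57 and log2 Dbp over Arntl in VSMC-type cells of TNF-Tg at 3.21. Pairs of a member and a cell type that were higher in TNF-Tg numbered 22, and 38 with a minimum of 1 UMI. Lower pairs numbered 15, and 28 with clusters, 27 with a minimum of 1 UMI and 9 with a minimum of 50 UMIs. Of the 5 members that differed between resident macrophages and LMC-type cells, DESeq2 left 2, a fit with no library block, which drops the pairing of cell types within a library, 1, and cells with at most 10% mitochondrial UMIs and at least 500 genes 3. Leaving out each library gave 2 to 5, with 2 without WT, and 0 to 0 between VSMC-type and LMC-type cells. The causes of these changes were not tested. Among single-gene values, 480 stayed, 30 moved, 16 lost and 2 gained a call. No paired analysis was possible because TNF-Tg against WT comes from no test and nothing in the labels ties their libraries. Depth limited Ciart everywhere, the tdT values of resident macrophages and the LMC-type cells of tdT2, where 3 UMIs correspond to 6.34 CPM.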
